A study of Rattus norvegicus with 4 samples.

Results

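The 9 genes described here belong to the WNK pathway, which controls chloride transport, and were followed through single nuclei of rat fat: the kinases Wnk1, Wnk2, Wnk3 and Wnk4, the downstream kinases Stk39 and Oxsr1, and the cation-chloride cotransporters Slc12a2, Slc12a4 and Slc12a7. They were taken by symbol from the 32883 genes of the count matrices, and all 9 were present. The members were chosen by their summed UMIs in perivascular against brown fat, since Stk39 had been seen to be lower in perivascular fat, so every value of that contrast is given as a description without a test. The study sequenced nuclei of frozen, minced fat from naive male Dahl salt-sensitive rats (strain SS/HsdMcwiCrl, aged 16 weeks), an inbred strain that becomes hypertensive on a high-salt diet. There were 2 libraries of thoracic aorta perivascular adipose tissue (taPVAT) and 2 of subscapular brown adipose tissue (BAT), each from about 50 mg of tissue. The labels name no treatment, and nothing in them ties a taPVAT library to the rat of a BAT library.

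WNK kinases sense intracellular chloride and osmotic stress. They switch on 2 related kinases, SPAK (the product of Stk39) and OSR1 (Oxsr1), which phosphorylate the cotransporters: the inward sodium-potassium-chloride carrier NKCC1 (Slc12a2) is activated and the outward potassium-chloride carriers KCC1 (Slc12a4) and KCC4 (Slc12a7) are held back. The pathway is best known for salt handling in the distal nephron. In arteries, SPAK and NKCC1 keep smooth muscle chloride above its equilibrium, which favours contraction, and Wnk1 is required in endothelium for vessel growth.

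The 4 libraries held 63654436 to 158140959 unique molecular identifiers (UMIs, one per captured RNA molecule). Of 14765 to 44637 barcodes per library, 12336 to 42979 passed a minimum of 500 detected genes and are called nuclei here. Whether some of them hold only free RNA was not tested. Nuclei were assigned to classes by marker lists that hold none of the members: 10167 to 36047 adipocyte nuclei per library, 513 to 2842 vascular endothelial, 321 to 969 mural (the smooth muscle and pericytes of the vessel wall) and 353 to 859 fibroblast. For 14 of 15 vascular endothelial, 15 of 16 mural and 11 of 12 fibroblast markers the lowest library value in their own class exceeded the highest library value in any other of these 4 classes. The same held for 7 of 13 adipocyte markers, and Adipoq was not among them. Relative to adipocyte nuclei, the median adipocyte marker reached 45.5 to 64.7% in vascular endothelial nuclei and 44.5 to 70.2% in mural nuclei, so RNA of adipocyte marker genes was present in all classes. Whether it came as free RNA, from doublets or from the nuclei themselves was not tested. Levels below are UMIs per 1000000 UMIs summed over a class in 1 library (CPM), and they are compared for 1 gene at a time because they are not scaled to transcript length. Pairs of libraries shared 93 to 381 cell barcodes, at most 1.19% of the smaller library.

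Stk39 (ENSRNOG00000024808) is the member whose adipocyte level differed most between the tissues by log2 fold change, and its promoter is given for reference, since no protein sequence was at hand. It lies on the minus strand of rat chromosome 3, at chr3:73586930-73587229 of the RefSeq assembly GRCr8, and runs from 250 bases before to 50 bases after the annotated start. Capitals mark the GC box GGGCGG on either strand, a motif bound by Sp-family factors.

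Stk39: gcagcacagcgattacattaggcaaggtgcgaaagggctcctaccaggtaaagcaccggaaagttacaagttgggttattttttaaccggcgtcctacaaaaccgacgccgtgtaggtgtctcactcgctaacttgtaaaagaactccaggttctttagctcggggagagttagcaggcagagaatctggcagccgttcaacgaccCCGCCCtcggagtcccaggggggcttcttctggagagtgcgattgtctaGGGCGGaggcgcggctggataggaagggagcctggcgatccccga

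The window held 2 GC boxes and no TATAAA on either strand, and 56.0% of its bases were G or C. Of the 33469 rat promoters of this length in the same table, 33.1% held a GC box and 14.2% held TATAAA.

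Stk39 was carried most strongly by mural nuclei in both fats, above every other well-sampled class, and in adipocytes it was lower in taPVAT than in BAT. Its mural level was 249 and 355 CPM in the taPVAT libraries and 311 and 282 CPM in the BAT libraries. Adipocyte nuclei had 62.4 and 54.6 CPM in taPVAT and 123 and 128 CPM in BAT. Vascular endothelial nuclei had 63.7 and 62.1 CPM in taPVAT and 102 and 90.4 CPM in BAT. Every mural value lay above every adipocyte, endothelial and fibroblast value.

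**Figure D1:**
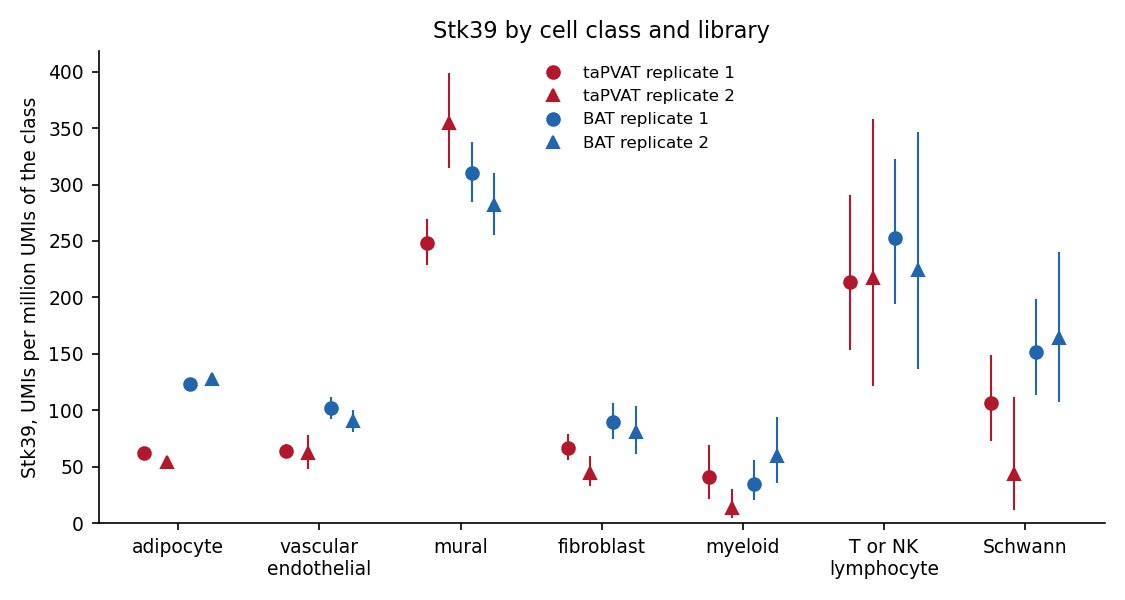
Stk39 in CPM (vertical axis) for 7 cell classes and 4 libraries, with red for taPVAT, blue for BAT, circles for replicate 1 and triangles for replicate 2; bars are 95% Poisson intervals that cover counting error only. Mural values of 249 to 355 CPM stand above adipocyte values of 54.6 to 128 CPM. In adipocyte and vascular endothelial nuclei both taPVAT libraries are below both BAT libraries. Of all genes tested there, 19.7 and 20.6% did not overlap between the tissues. Fibroblast values have the same order, but the share of all genes was not computed in that class.

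T or NK lymphocyte nuclei also stood high, at 214 and 217 CPM in taPVAT and 252 and 224 CPM in BAT, from 40 to 138 nuclei and 15 to 63 Stk39 UMIs per library. Up to 51.8% of those nuclei lay near the marker threshold, and their Poisson intervals overlapped those of mural nuclei in all 4 libraries. Fibroblast nuclei had 66.5 and 44.5 CPM in taPVAT and 89.3 and 80.5 CPM in BAT. Schwann nuclei ranged from 43.6 to 164 CPM and myeloid nuclei reached at most 59.5 CPM, each from few UMIs. In each library the order was therefore mural nuclei first and lymphocyte nuclei second, within their counting error. Schwann nuclei came next in 3 of the 4 libraries, and adipocyte, endothelial and fibroblast values interleaved.

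In adipocyte nuclei Stk39 averaged 58.5 ± 5.51 CPM in taPVAT and 125 ± 3.36 CPM in BAT (SD, n = 2 libraries each). BAT exceeded taPVAT 1.97 times between the libraries numbered 1 and 2.34 times between those numbered 2, and edgeR's log2 fold change of taPVAT against BAT was -1.06. The tissues did not overlap. Across adipocytes edgeR called 0 of 16483 genes at an adjusted p under 0.05 (0%), against 330 (2%) at an unadjusted p under 0.05 and 70 (0.425%) by DESeq2. The libraries of the tissues failed to overlap for 19.7% of all genes and for 2 of the 9 members, Stk39 and the scarce Wnk2. At least 1 Stk39 UMI was found in 17.2 and 18.8% of taPVAT and 35.8 and 29.9% of BAT adipocyte nuclei, whose median depths were 3381, 5059, 4220 and 2974 UMIs. Thinned to 1000 UMIs per nucleus, which left out 16 to 606 nuclei per library, the shares were 5.72 and 5.43% against 11.1 and 11.1%. These shares also did not overlap, but they come from the UMIs by which Stk39 was chosen and add no separate support. Thinned fibroblast nuclei of the same libraries gave 5.50 and 4.44% in taPVAT and 6.39 and 6.44% in BAT.

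In the same UMIs split by depth of nucleus, the adipocyte Stk39 level of both taPVAT libraries was below that of both BAT libraries in each range. As these are the UMIs by which Stk39 was chosen, the split adds no separate support. The share of all genes with no overlap was not computed by depth. Among nuclei under 2000 UMIs it was 75.3 and 104 CPM in taPVAT against 166 and 128 CPM in BAT. Between 2000 and 5000 UMIs it was 62.0 and 75.6 CPM against 125 and 124 CPM, and above 5000 UMIs 60.7 and 44.4 CPM against 120 and 135 CPM. The gap was narrowest in the shallowest nuclei, where 1 taPVAT library had only 55 Stk39 UMIs.

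Within each library Stk39 was higher in adipocyte nuclei in which no UMI of the brown fat uncoupling protein Ucp1 was found. Those nuclei had 109 and 91.4 CPM in taPVAT and 274 and 160 CPM in BAT, against 58.5 and 47.3 CPM and 118 and 121 CPM in nuclei with a Ucp1 UMI. Nuclei without Ucp1 were shallower, but between 2000 and 5000 UMIs the same order held: the log2 ratio was 0.95 and 1.21 in taPVAT and 1.42 and 0.48 in BAT, with a mean of 1.01 ± 0.40 (SD, n = 4). It was higher in 4 of 4 libraries, and an exact two-sided permutation test over the library pairs gave p = 0.125, the smallest that 4 libraries allow. Among the 7604 genes with at least 30 UMIs in each stratum, the median log2 ratio was 0.01, 20.4% were higher in all 4 libraries, and 1.16% reached the mean of Stk39. UMIs of the mural list made up 0.0293 to 0.0413% of all UMIs in these nuclei without Ucp1 and 0.0295 to 0.0407% in those with it. Other members did not share the pattern, with Wnk1 at 0.00 ± 0.03, Oxsr1 at -0.04 ± 0.05 and Slc12a2 at -0.31 ± 0.33 on the same log2 scale (SD, n = 4).

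**Figure D2:**
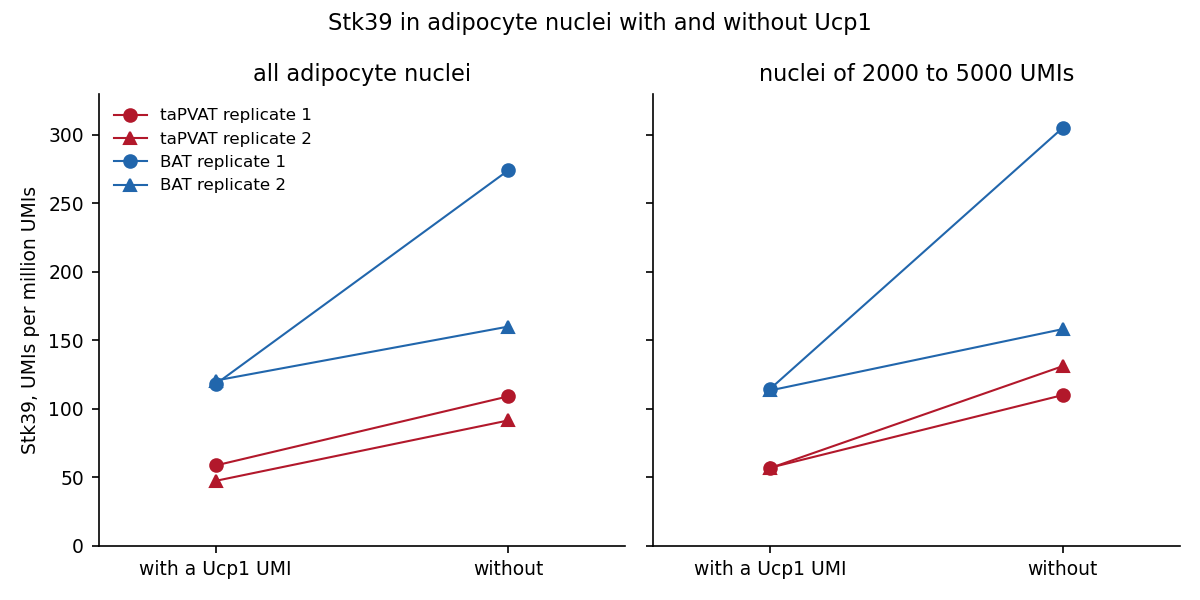
Stk39 in CPM (vertical axis) in adipocyte nuclei with and without a Ucp1 UMI, for all adipocyte nuclei and for those of 2000 to 5000 UMIs, 1 line per library. All 4 lines rise in both panels, at the steepest from 118 to 274 CPM over all adipocyte nuclei and from 114 to 305 CPM between 2000 and 5000 UMIs. Both BAT lines stay above both taPVAT lines, an order that comes from the UMIs by which Stk39 was chosen.

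In vascular endothelial nuclei the taPVAT and BAT values of Stk39 again did not overlap, with means of 62.9 ± 1.15 and 96.1 ± 8.02 CPM (SD, n = 2 each) and a log2 fold change of -0.65. These nuclei carried adipocyte marker RNA at 45.5 to 64.7% of its adipocyte level. Restricting them to nuclei with under 1% of UMIs from adipocyte markers, an alternative added after the data were seen, gave 59.5 and 52.0 CPM in taPVAT and 84.5 and 68.3 CPM in BAT (log2 fold change -0.50), with adipocyte markers still at 30.1 to 42.6%. Of 11360 genes tested there, edgeR called 0 (0%), DESeq2 4 (0.0352%), and 187 (1.65%) passed an unadjusted p of 0.05, while 20.6% did not overlap between the tissues. In mural nuclei the tissues overlapped for Stk39, with a log2 fold change of -0.00 that became 0.26 without replicate 1 and -0.32 without replicate 2 of taPVAT. There edgeR called 1 of 9537 genes (0.0105%), DESeq2 called 25 (0.262%), 357 (3.74%) passed an unadjusted p of 0.05, and 28.4% did not overlap.

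The class comparison does not use the tissue contrast, and in it Stk39 was higher in mural nuclei than in both other classes. Against adipocyte nuclei the log2 fold change was 1.67 ± 0.21 (SE, edgeR adjusted p = 6.4e-05), 3.18-fold, and against vascular endothelial nuclei it was 1.97 ± 0.21 (edgeR adjusted p = 3.36e-05), 3.9-fold, higher in 4 of 4 libraries each time. EdgeR called 48.1% of 12433 genes between mural and adipocyte nuclei and 25.7% between mural and endothelial nuclei, so a call alone sets no gene apart. Mural nuclei were shallower than adipocyte nuclei (medians of 1732.5 to 2019 against 2974 to 5059 UMIs) and richer in mitochondrial UMIs (13.5 to 16.7% against 6.1 to 9.52%). In nuclei with at most 5% mitochondrial UMIs, 17 to 68 mural nuclei per library, the log2 fold change was 1.13 against adipocytes (edgeR adjusted p = 0.000149) and 1.09 against endothelial nuclei (edgeR adjusted p = 0.00333). A further setting, called little adipocyte RNA here, limited mural and endothelial nuclei to under 1% of UMIs from adipocyte markers. Adipocyte markers still reached 24.2 to 42.6% of their adipocyte level in those mural nuclei and 30.1 to 42.6% in those endothelial nuclei. The log2 fold changes were then 2.03 against adipocytes (edgeR adjusted p = 1.48e-06) and 2.58 against endothelial nuclei (edgeR adjusted p = 5.76e-07). At least 1 Stk39 UMI was found in 39.1 to 51.4% of mural and 9.36 to 15.5% of vascular endothelial nuclei. Thinned to 1000 UMIs per nucleus, which left out 6 to 80 mural and 26 to 361 endothelial nuclei per library, the shares were 22.6 to 29.3% and 4.7 to 7.94%.

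Mural nuclei were further split by whether more of their UMIs came from smooth muscle or from pericyte markers, a division made after the data were seen. The former were Myh11, Cnn1, Lmod1, Myocd, Acta2 and Tagln, and the latter Rgs5, Abcc9, Kcnj8 and Higd1b. Lmod1 was also found in adipocyte nuclei, at 112 to 221 CPM against 160 to 473 CPM in mural nuclei. A split without Lmod1 was not tested. Stk39 was 260, 359, 385 and 318 CPM on the pericyte side (taPVAT replicates 1 and 2, BAT replicates 1 and 2) and 187, 264, 214 and 227 CPM on the smooth muscle side. The pericyte side was higher in all 4 libraries, from 36 to 251 smooth muscle and 275 to 768 pericyte nuclei. Between vascular endothelial and adipocyte nuclei Stk39 differed by a log2 fold change of -0.30 ± 0.20 (SE, edgeR adjusted p = 0.226). Without replicate 2 of taPVAT that difference was called at -0.38 (edgeR adjusted p = 0.0327), and in nuclei with little adipocyte RNA at -0.55 (edgeR adjusted p = 0.0229), so it rested on the choice of nuclei and libraries.

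Oxsr1 (ENSRNOG00000013136), which encodes the close relative OSR1, stayed between 132 and 224 CPM in the 3 tested classes. Its adipocyte values were 166 and 132 CPM in taPVAT and 188 and 141 CPM in BAT, its endothelial values 150 and 150 against 160 and 142 CPM, and its mural values 186 and 173 against 224 and 159 CPM. The tissues overlapped in all 3 classes, with log2 fold changes of taPVAT against BAT between -0.12 and -0.05. Mural and adipocyte nuclei differed by 0.12 ± 0.10 (log2, SE, edgeR adjusted p = 0.365). The mural excess over endothelial nuclei, 0.31 ± 0.10 (edgeR adjusted p = 0.0484), was called in 6 of 14 alternative analyses. Without replicate 1 of taPVAT, replicate 1 of BAT or replicate 2 of BAT it was 0.32, 0.25 and 0.38 and was not called (edgeR adjusted p of 0.148, 0.262 and 0.0783). With at most 5% mitochondrial UMIs it was 0.04 (edgeR adjusted p = 0.97). The endothelial value against adipocytes was -0.19 ± 0.10 (edgeR adjusted p = 0.119). That difference was called in 3 of 14 alternatives, at -0.33 with no filter on low counts (edgeR adjusted p = 0.0405), -0.25 without replicate 2 of taPVAT (edgeR adjusted p = 0.0487) and -0.34 with little adipocyte RNA (edgeR adjusted p = 0.0309).

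Wnk1 (ENSRNOG00000009956), the most widely used of the WNK kinases, was the highest of the 3 tested classes in vascular endothelium. Its vascular endothelial level was 723 and 997 CPM in taPVAT and 703 and 795 CPM in BAT, against 482, 424, 456 and 412 CPM in adipocyte nuclei of the same libraries. Mural nuclei had 425 and 340 CPM in taPVAT and 382 and 347 CPM in BAT. No endothelial value overlapped a value of the other 2 classes. Lymphatic endothelial nuclei, counted in the single library that had at least 20 of them, reached 926 CPM. Myeloid nuclei, 168 to 241 per library and not tested, had 720 and 694 CPM in taPVAT and 471 and 585 CPM in BAT, below the endothelial value in each library but within its counting error in replicate 1 of taPVAT.

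Wnk1 was 1.64-fold higher in vascular endothelial than in adipocyte nuclei, a log2 fold change of 0.71 ± 0.13 (SE, edgeR adjusted p = 0.000625), in a comparison in which 60.2% of 12433 genes were called. The difference was called in 14 of 14 alternative analyses and ranged there from 0.31, with at most 5% mitochondrial UMIs, to 0.91 with little adipocyte RNA. Mural nuclei lay below endothelial nuclei by -1.08 ± 0.13 (log2, SE, edgeR adjusted p = 7.56e-05), a value of -0.48 with at most 5% mitochondrial UMIs. The mural deficit against adipocytes, -0.37 ± 0.13 (edgeR adjusted p = 0.0333), kept its sign but was not called in 7 of 14 alternatives, among them library totals without TMM scaling (-0.24, edgeR adjusted p = 0.148). Without replicate 1 of taPVAT, replicate 1 of BAT or replicate 2 of BAT it was about as large, at -0.36, -0.36 and -0.36, and was not called (edgeR adjusted p of 0.0873, 0.122 and 0.13). Between the tissues Wnk1 overlapped in all 3 classes, with log2 fold changes of 0.04 to 0.15. In the RefSeq assembly GRCr8 the Wnk1 gene overlaps Rad52, and whether counting used strand is not given in the sources used here.

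Wnk2 (ENSRNOG00000016684) was nearly silent except in mural nuclei on the smooth muscle side. Its mural level was 5.62 and 1.26 CPM in taPVAT and 9.87 and 7.62 CPM in BAT, from 13, 1, 17 and 11 UMIs. Of these 42 UMIs, 40 came from nuclei on the smooth muscle side, where the level was 24.6, 13.2, 22.1 and 18.1 CPM (taPVAT replicates 1 and 2, BAT replicates 1 and 2). Adipocyte nuclei had 40 UMIs in all, 0.035 to 0.133 CPM, and vascular endothelial nuclei had 0, 0, 1 and 1 UMI. Counts of 0 allow up to 0.519 and 2.66 CPM in the endothelial nuclei of taPVAT. The fitted log2 fold change of mural against adipocyte nuclei was 5.93, with the mural level higher in 4 of 4 libraries. Wnk2 passed the count filter of the class comparison (at least 2 of 12 sums over 2.57 CPM) only through its mural sums, so its differences between classes are given without a test.

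Wnk3 (ENSRNOG00000002537) and Wnk4 (ENSRNOG00000020441), the latter a regulator of the thiazide-sensitive cotransporter in kidney, were at the limit of detection. Adipocyte nuclei gave 162 UMIs of Wnk3, 0.296 to 0.455 CPM, and 120 UMIs of Wnk4, 0.206 to 0.362 CPM. In mural nuclei they gave 14 and 5 UMIs, from class sums of 791953 to 2312782 UMIs per library against 57129722 to 145958140 in adipocytes. Wnk3 was found in 0.413 to 0.623% of mural and 0.452 to 0.85% of fibroblast nuclei, against 0.114 to 0.181% of the deeper adipocyte nuclei. Wnk4 was found in 0 to 0.312% of mural and 0.0972 to 0.148% of adipocyte nuclei. Wnk3 and Wnk4 fell under the count filter of the class comparison, so 7 of the 9 members, Wnk2 included, entered the fit there.

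Slc12a2 (ENSRNOG00000015971), encoding NKCC1, was the lowest of the 3 tested classes in vascular endothelium, and in adipocytes it separated the library numbers rather than the tissues. Adipocyte nuclei had 594 and 296 CPM in taPVAT and 484 and 243 CPM in BAT. Both libraries numbered 1 were above both numbered 2, and within each number taPVAT exceeded BAT by a log2 ratio of 0.29 and 0.28. Mural nuclei had 510 and 472 CPM in taPVAT and 465 and 360 CPM in BAT, a smaller spread. The tissues did not overlap there, as for 28.4% of all genes in mural nuclei. The log2 fold change of taPVAT against BAT was 0.22. Vascular endothelial nuclei had 380 and 118 CPM in taPVAT and 271 and 143 CPM in BAT. The median adipocyte marker reached 64.7, 45.5, 62.9 and 57.5% of its adipocyte level in these nuclei, in the same order of libraries. How much of their Slc12a2 came with that RNA was not tested.

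**Figure D3:**
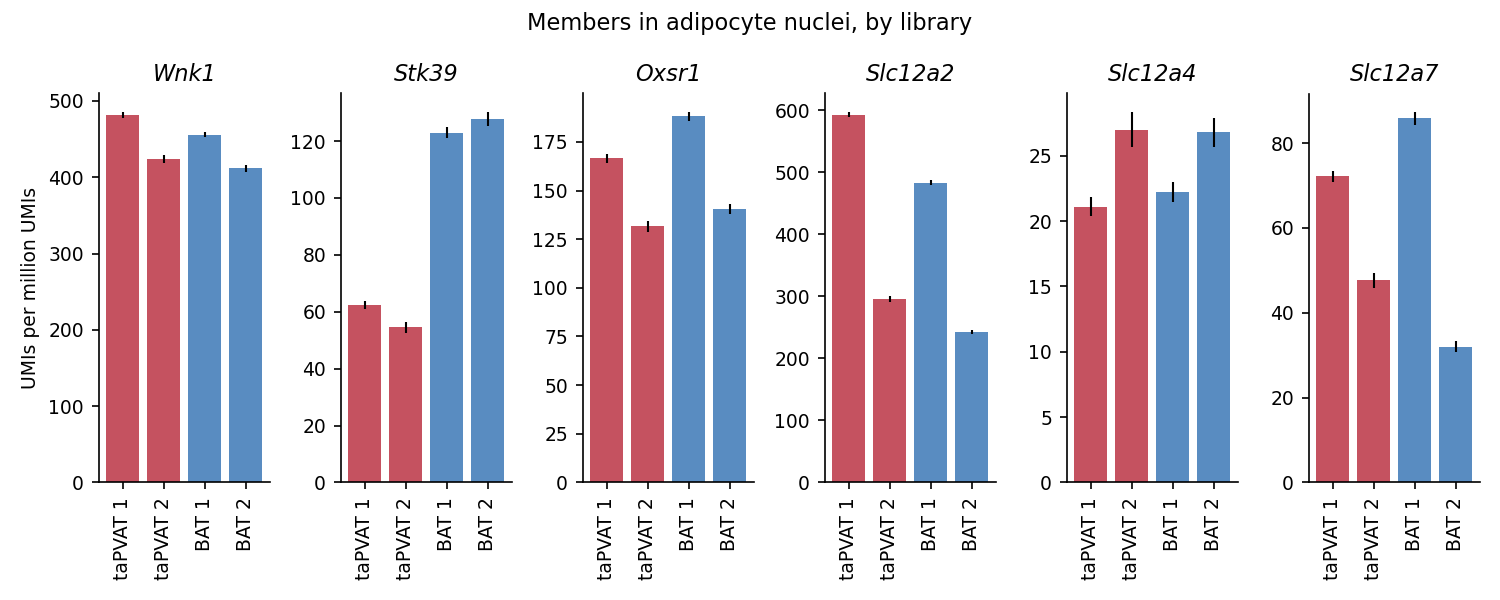
Level of the 6 abundant members in adipocyte nuclei (vertical axes, CPM, each with its own scale from 0) in the 4 libraries, red for taPVAT and blue for BAT, with 95% Poisson intervals that cover counting error only. Stk39 is the one panel split by tissue (54.6 and 62.4 against 123 and 128 CPM), while in the other panels the libraries numbered 1 do not overlap those numbered 2, being higher for Wnk1, Oxsr1, Slc12a2 and Slc12a7 and lower for Slc12a4; of all genes tested in adipocytes, 61.1% did not overlap between the library numbers.

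Slc12a2 was lower in vascular endothelial than in adipocyte nuclei, with a log2 fold change of -1.0 ± 0.21 (SE, edgeR adjusted p = 0.00176), in 4 of 4 libraries, but only -0.37 with at most 5% mitochondrial UMIs (edgeR adjusted p = 0.0488). It was higher in mural than in endothelial nuclei by 1.14 ± 0.22 (edgeR adjusted p = 0.00205), a call lost with at most 5% mitochondrial UMIs, where the value was 0.25 (edgeR adjusted p = 0.457). Mural and adipocyte nuclei differed by 0.14 ± 0.21 (edgeR adjusted p = 0.615), and this difference turned its sign in 3 of 14 alternatives. In endothelial nuclei with little adipocyte RNA the gene was lower still, at 271, 100, 200 and 90.5 CPM (taPVAT replicates 1 and 2, BAT replicates 1 and 2). Fibroblast nuclei under the same limit, a class not tested, were below these in each library, at 190, 68.7, 119 and 38.7 CPM.

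Slc12a4 (ENSRNOG00000019651), encoding the volume-regulating carrier KCC1, was higher in mural and vascular endothelial than in adipocyte nuclei. Mural nuclei had 64.0 and 115 CPM in taPVAT and 96.4 and 89.3 CPM in BAT. Vascular endothelial nuclei had 33.6 and 78.0 CPM in taPVAT and 37.1 and 64.5 CPM in BAT, and adipocyte nuclei had 21.1, 27.0, 22.2 and 26.8 CPM in the same order of libraries. All adipocyte values lay below all vascular values. Fibroblast nuclei had 44.7 and 83.1 CPM in taPVAT and 62.2 and 62.0 CPM in BAT, overlapping the endothelial values. The mural excess over adipocytes was 1.76 ± 0.17 (log2, SE, edgeR adjusted p = 9.59e-06), 3.39-fold, and the endothelial excess was 0.91 ± 0.17 (edgeR adjusted p = 0.000705), 1.87-fold. Mural nuclei exceeded endothelial nuclei by 0.86 ± 0.18 (edgeR adjusted p = 0.0034). With at most 5% mitochondrial UMIs these 3 values were 0.74, 0.67 and 0.06 and none was called (edgeR adjusted p of 0.112, 0.0839 and 0.98).

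Slc12a7 (ENSRNOG00000016372), encoding KCC4, went the other way and was the lowest of the 3 tested classes in mural nuclei. It measured 38.5 and 20.2 CPM in taPVAT and 47.0 and 18.0 CPM in BAT there, against 72.1, 47.7, 85.8 and 32.0 CPM in adipocyte nuclei of the same libraries. The median adipocyte marker reached 70.2, 44.5, 60.6 and 55.2% of its adipocyte level in those mural nuclei. How much of their Slc12a7 came with that RNA was not tested. Vascular endothelial nuclei had 70.6 and 55.9 CPM in taPVAT and 70.6 and 42.5 CPM in BAT. The libraries numbered 1 were above those numbered 2 in each of these classes, where 61.1% (adipocyte), 59.2% (endothelial) and 48.3% (mural) of all genes did not overlap between the numbers, and the tissues overlapped. The mural deficit was -1.05 ± 0.15 against adipocytes (log2, SE, edgeR adjusted p = 0.000228) and -0.97 ± 0.16 against endothelium (edgeR adjusted p = 0.000775), in 4 of 4 libraries. Both calls were lost with at most 5% mitochondrial UMIs, at -0.12 and -0.40 (edgeR adjusted p of 0.823 and 0.489), and with little adipocyte RNA they were -1.78 and -1.55. Mural nuclei with little adipocyte RNA had 18.6, 16.0, 23.7 and 13.3 CPM (taPVAT replicates 1 and 2, BAT replicates 1 and 2). Fibroblast nuclei under the same limit, a class not tested, overlapped them at 25.2, 27.7, 15.7 and 12.2 CPM. Endothelial and adipocyte nuclei differed by -0.07 ± 0.14 (edgeR adjusted p = 0.661).

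**Figure D4:**
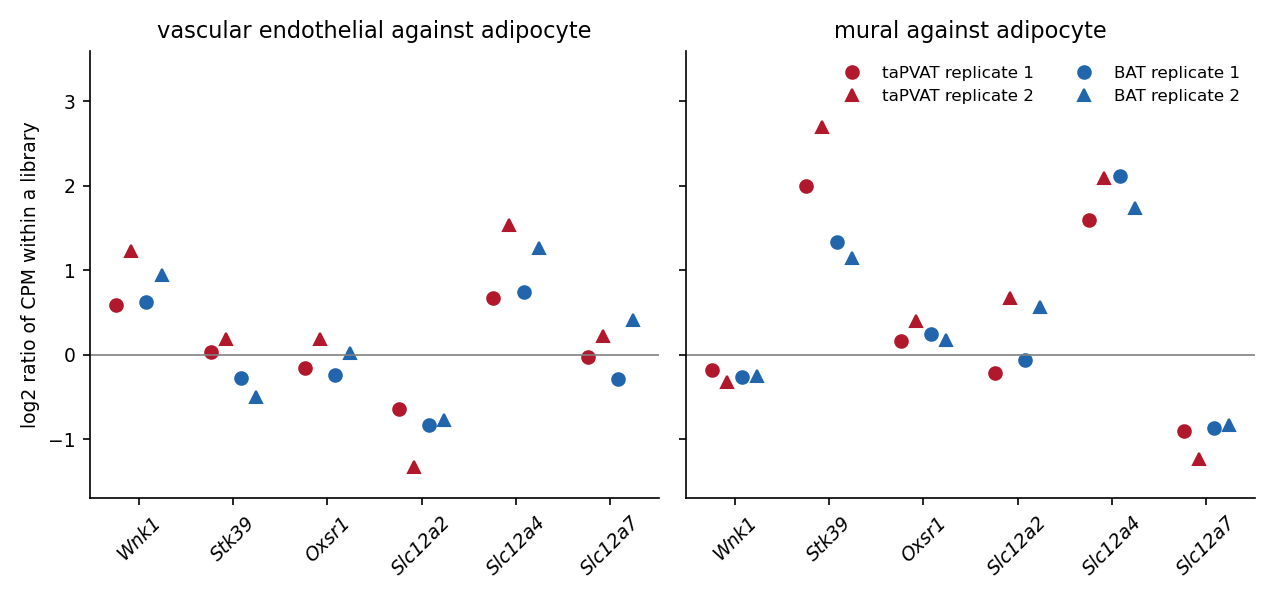
Log2 ratio of CPM within each library (vertical axis) of vascular endothelial (left) and mural nuclei (right) to adipocyte nuclei for the 6 abundant members, red for taPVAT, blue for BAT, circles for replicate 1 and triangles for replicate 2. All 4 libraries lie above 0 for Wnk1 and Slc12a4 in endothelium and for Stk39, Oxsr1 and Slc12a4 in mural nuclei, and below 0 for Slc12a2 in endothelium and for Wnk1 and Slc12a7 in mural nuclei.

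Of the 6 members that passed the count filter whichever class was left out, 2 were higher and 1 lower in vascular endothelial than in adipocyte nuclei, where 28.5 and 31.6% of all genes were. In mural against adipocyte nuclei 2 were higher and 2 lower, beside 22.3 and 25.9% of all genes, and in mural against endothelial nuclei 4 were higher and 2 lower, beside 12.4 and 13.3%. The median log2 fold change of these 6 was -0.13, 0.13 and 0.58 in these comparisons, and that of all genes was -0.07, -0.07 and 0.00. Shares and medians of all genes also hold genes that passed the filter through 1 class only. Library totals without TMM scaling moved the split over all genes from 3548 higher and 3932 lower to 4103 and 3010 in endothelial nuclei, and from 2771 and 3214 to 3227 and 2325 in mural nuclei, both against adipocytes, and it moved the median of all genes from -0.07 to 0.07 and from -0.07 to 0.06. Between the tissues the median of the members was 0.03 in adipocytes (all genes 0.01), 0.08 in endothelial nuclei (all genes -0.00) and -0.11 in mural nuclei (all genes 0.01).

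The other genes of the pathway, a list of 42 that covers scaffolds, turnover factors, channels, pumps and osmotic genes, held no gene called between the tissues. EdgeR called none of the 39, 28 and 25 list genes tested in the tissue comparisons of adipocyte, endothelial and mural nuclei. DESeq2 also called none, and 1, 1 and 0 passed an unadjusted p of 0.05. Of all genes in these comparisons, edgeR called 0, 0 and 0.0105% and DESeq2 0.425, 0.0352 and 0.262%. An unadjusted p of 0.05 was passed by 2, 1.65 and 3.74% of all genes. The 2 smallest unadjusted p of the list, under 0.05 or not, belonged in adipocytes to Nedd4l, a ubiquitin ligase, and Akr1b1, aldose reductase. Their values were 0.78 ± 0.29 and -0.72 ± 0.30 (log2, SE). In endothelial nuclei the 2 smallest p belonged to Slc12a9 at 1.46 ± 0.55 and Ano1 at -1.30 ± 0.63, and in mural nuclei to Fxyd1 at -0.59 ± 0.27 and Nedd4l at 0.50 ± 0.25, none of them called.

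Of the 31 list genes in the class fit, 27 passed the count filter whichever class was left out, and the other 4 (Atp1b1, Klhl3, Sgk2 and Slc12a5) passed it through a class in which they are high and are given without a test. In vascular endothelial against adipocyte nuclei 7 of the 27 were higher (25.9%, beside 28.5% of all genes) and 6 lower (22.2%, beside 31.6%), with a median log2 fold change of 0.10 against -0.07 over all genes. Genes that passed the filter through 1 class only stay in the shares of all genes, here and in the comparisons below. With all 31 list genes kept, the shares were 29 and 22.6% here and 32.3 and 22.6% in mural against adipocyte nuclei. In mural against endothelial nuclei they were 12.9 and 32.3%. The differences from all genes were not tested. Klhl2, a substrate adaptor that directs WNK kinases to degradation, was higher in endothelium by 2.76 ± 0.22 (log2, SE, edgeR adjusted p = 1.49e-06). Its relative Klhl3 was at 15.4 and 16.0 CPM in taPVAT and 10.9 and 12.3 CPM in BAT endothelium, against 0.541 to 1.09 CPM in adipocytes. Sgk1, a kinase under mineralocorticoid control, was higher by 4.74 ± 0.27 (edgeR adjusted p = 2.4e-07) and Lrrc8c, a subunit of the volume-regulated anion channel, by 5.27 ± 0.41 (edgeR adjusted p = 1.43e-06). Sgk2, of the same kinase family as Sgk1, reached at most 2.25 CPM in endothelium and 5.83 CPM in adipocytes. With at most 5% mitochondrial UMIs the values of Sgk1, Lrrc8c and Klhl2 were 3.92, 3.85 and 1.47, each still called.

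Mural against adipocyte nuclei had 8 of 27 list genes higher (29.6%, beside 22.3% of all genes) and 6 lower (22.2%, beside 25.9%), with a median of -0.05 against -0.07. The calcium-activated chloride channel Ano1 stood at 437 and 535 CPM in taPVAT and 620 and 458 CPM in BAT mural nuclei, against 15.1 to 101 CPM in adipocytes, a log2 fold change of 3.83 ± 0.37 (SE, edgeR adjusted p = 1.04e-05). Lrrc8c was higher by 3.80 ± 0.39 (edgeR adjusted p = 1.7e-05), and so was the sodium pump beta subunit Atp1b2, by 3.32 ± 0.29 (edgeR adjusted p = 4.26e-06). Atp1b2 had 0 adipocyte, 2 endothelial and 4 mural sums over the count cutoff, so it passed the filter only through classes other than adipocytes. With at most 5% mitochondrial UMIs it fell under the filter. Of the other beta subunits, Atp1b3 was lower by -0.51 ± 0.09 (edgeR adjusted p = 0.000678), named after its value was seen, and Atp1b1 had 2.08 to 5.23 CPM in mural and 1.03 to 1.93 CPM in adipocyte nuclei. The endosomal chloride-proton exchanger Clcn3 was lower by -1.35 ± 0.21 (edgeR adjusted p = 0.000383), but was not called with at most 5% mitochondrial UMIs (-0.61, edgeR adjusted p = 0.2), where Ano1 and Lrrc8c were at 2.57 and 2.72.

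Mural against vascular endothelial nuclei had 3 of 27 list genes higher (11.1%, beside 12.4% of all genes) and 9 lower (33.3%, beside 13.3%), with a median of -0.14 against 0.00. Ano1 was higher by 4.64 ± 0.41 (edgeR adjusted p = 7.14e-06) and Atp1b2 by 2.69 ± 0.35 (edgeR adjusted p = 0.000124). Sgk1 was lower by -4.04 ± 0.35 (edgeR adjusted p = 6.96e-06) and Klhl2 by -1.52 ± 0.24 (edgeR adjusted p = 0.000573), the last not called with at most 5% mitochondrial UMIs (-0.58, edgeR adjusted p = 0.619). The taurine carrier Slc6a6 was lower by -1.91 ± 0.12 (edgeR adjusted p = 7.64e-07). At that mitochondrial limit Ano1 was at 2.71 and Slc6a6 at -0.98, and with little adipocyte RNA Ano1, Atp1b2 and Slc6a6 were at 5.66, 3.63 and -2.91.

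**Figure D5:**
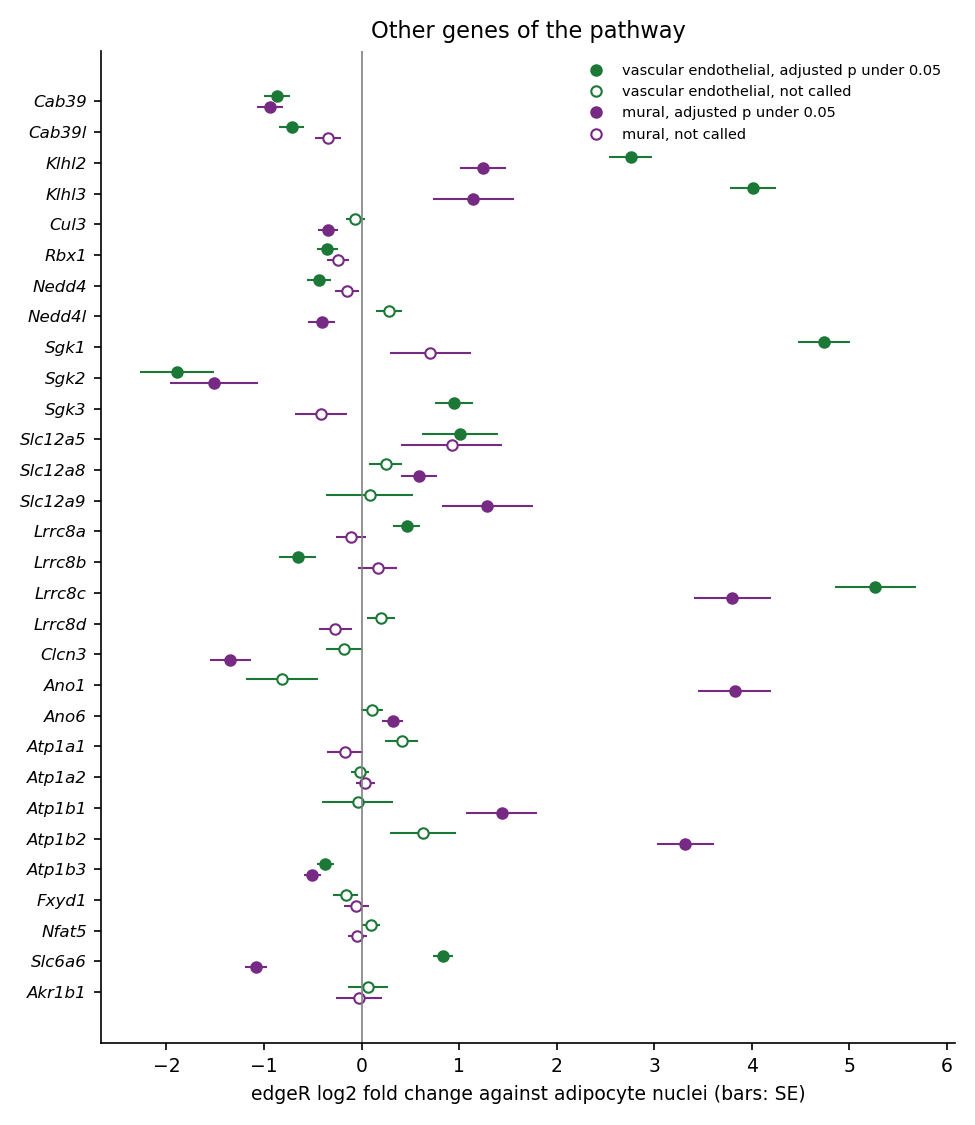
EdgeR log2 fold change (horizontal axis, bars are SE) of vascular endothelial (green) and mural nuclei (purple) against adipocyte nuclei for tested genes of the pathway list, filled where the adjusted p was under 0.05, a fill that is no test for Atp1b1, Klhl3, Sgk2 and Slc12a5. Lrrc8c is far to the right in both classes (5.27 and 3.80), Sgk1 and Klhl3 in endothelium (4.74 and 4.01) and Ano1 in mural nuclei (3.83).

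The genes whose level most resembled that of Stk39 over the 16 sums of 4 libraries by 4 classes (adipocyte, vascular endothelial, mural, fibroblast) were mural genes. Among 6453 genes with a mean of at least 20 CPM, Pearson's r of log2(CPM + 1) was 0.95 for Dclk3, 0.94 for the smooth muscle myosin Myh11, 0.93 for Ano1 and Stac, and 0.92 for the junctophilin Jph2. Myh11 is one of the markers that chose the mural nuclei, and the 4 sums of each library share its preparation and depth. Of the members, Oxsr1 stood at 0.66 (rank 201), Slc12a2 at 0.51 and Slc12a4 at 0.47, while Slc12a7 was at -0.39 and Wnk1 at -0.55.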

How the data were processed

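Nuclear RNA of 4 libraries was captured with the 10x 3' kit v3.1, per the labels' protocols. The authors deposited raw UMI counts per gene and barcode, made with Cell Ranger 7.1.0 on Rnor_6.0, per the submitters' processing notes. Barcodes with at least 500 genes were kept. A nucleus joined a class other than adipocyte with at least 3 markers detected and 0.3% of its UMIs in that list. An adipocyte nucleus needed 3 markers, 1% of UMIs and no other list, and nuclei passing 2 other lists were left out (56 to 241 per library) as were those passing none (506 to 1474). No doublet caller and no test for empty droplets was run. These shares, the members, the lists and the tests were chosen with earlier results of these data known.

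Counts were summed per library and class and tested with edgeR 4.0.16 (quasi-likelihood, TMM, filterByExpr, Benjamini-Hochberg, threshold 0.05), with DESeq2 1.42.0 as an alternative. Tissue was fitted within a class (2 libraries against 2), and class over 12 sums with library as a term. P-values measure only the spread between these libraries. The SE of an edgeR log2 fold change is its absolute value divided by the square root of the test's F statistic. It is left out of the text where no test is given. Named genes were all 9 members, up to 6 called list genes per fit by size (with none called, the 2 with the smallest p) and the 5 genes most correlated with Stk39. Splits by Ucp1, by depth and into smooth muscle and pericyte sides were added later. A list gene that this rule names is not reported here. Slc5a3 of the pathway list was not among the symbols. Scripts were tested on simulated data and run in R 4.3.3 and Python 3.11.15. Intervals and the floor of 3 counts cover counting error only.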

Additional observations from a re-analysis of the deposited data

How the results depend on the processing

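Member and list results were recomputed under 15 alternatives or fewer. Genes called between the tissues numbered, in adipocyte, vascular endothelial and mural nuclei, 70, 4 and 25 by DESeq2 and 45, 48 and 109 with no filter on low counts. Leaving out single libraries gave 0 to 108, 0 to 29 and 0 to 36, with the highest values without BAT replicate 2, taPVAT replicate 2 and BAT replicate 1. With replicate number as a replicate block they were 212, 38 and 59; the labels do not tie the numbers together, and deviations of same-numbered libraries correlated across genes at 0.709, 0.542 and 0.368. Mural tissue calls were 0 with at most 5% mitochondrial UMIs and 2 with little adipocyte RNA. That mitochondrial limit left 10 to 111 endothelial and 17 to 68 mural nuclei per library and cut the class calls to 1304 (endothelial against adipocyte), 980 (mural against adipocyte) and 749 (mural against endothelial). Signs turned for Slc12a7 in endothelial against adipocyte nuclei (0.070 without TMM, -0.21 to 0.060 over single libraries left out with the highest without BAT replicate 1, 0.00057 with 1000 genes per nucleus, 0.29 at the mitochondrial limit), for Stk39 there (0.047 at that limit) and for Wnk2 there (-0.24 to 0.95 over single libraries left out, with -0.24 and -0.12 without BAT replicates 1 and 2, -4.79 with 1000 genes). In mural against adipocyte nuclei they turned for Oxsr1 (-0.061 unfiltered, -0.022 at the limit) and Slc12a2 (-0.038 unfiltered, -0.015 to 0.32 over single libraries left out with the lowest without taPVAT replicate 2, -0.12 at the limit). None of these was called in the main analysis; the cause was not tested. Of 622 recomputed values of named genes in the fits, 576 kept direction and call. This count includes Wnk2, Klhl3, Sgk2 and Atp1b1, given above without a test, and list genes never called between the tissues. It also includes settings that left the sums of a class unchanged. Of the tissue values of members, 294 moved by less than the spread of libraries within a tissue and 30 moved further.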
